A study of Homo sapiens with 16 samples.

Results

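The MAPK feedback genes described here are 10 genes that sit at the output end of the RAS-ERK pathway: DUSP1, DUSP4, DUSP5, DUSP6, SPRY1, SPRY2, SPRED1, SPRED2, ETV4 and ETV5. They were chosen by name as feedback and output genes of ERK signalling, not by a rule on measured values, though with earlier results of these data known. All 10 were found by symbol among the 57500 genes counted. The data are gene counts from bulk RNA sequencing of 16 libraries of NCI-H929, a cell line established from a human multiple myeloma. In the first experiment 4 libraries came from cells given compound 27, a degrader of the p300 protein, at 3 nM for 6 h, and 4 from cells given the vehicle DMSO. In the second, 4 libraries came from cells labelled p300 KO and 4 from cells labelled NTC. All 16 libraries share the parent line and carry the same batch label. The labels do not say how the KO was made, what NTC stands for, whether the KO cells are 1 clone or a pool, or whether replicates came from separate cultures. If they did not, the p-values reflect technical spread between libraries alone. In bulk RNA, fewer cells that express a gene and less RNA per cell cannot be told apart.

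ERK is the last kinase of a cascade that runs from growth factor receptors through RAS and MEK. Once active, ERK drives transcription of genes whose products restrain the same cascade. The dual-specificity phosphatases (DUSPs) remove phosphate from ERK and its relatives, the Sprouty (SPRY) and SPRED proteins act upstream at the level of receptors and RAS, and the ETS factors ETV4 and ETV5 carry the transcriptional output onward. Transcripts of these genes are widely read as a measure of pathway activity. NCI-H929 carries an activating NRAS mutation, and its chromosomal translocation places NSD2 and FGFR3 under immunoglobulin regulatory sequence. The protein p300, encoded by EP300, is a histone acetyltransferase and coactivator of many transcription factors, among them CREB, which binds the cyclic AMP response element (CRE). CREBBP encodes its close paralogue CBP.

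Upstream sequence is shown for a pair of the genes whose values stand at opposite ends of the degrader results: DUSP1, with the largest positive log2 fold change among the members, and SPRY1, with the largest negative one. Each is the 250 bases before the transcription start in the RefSeq promoter table (GRCh38.p14), read 5′ to 3′ on the gene's own strand. Capitals mark the letters TGACG or their reverse complement, the core of the CRE.
DUSP1, chr5:172771196-172771445, minus strand: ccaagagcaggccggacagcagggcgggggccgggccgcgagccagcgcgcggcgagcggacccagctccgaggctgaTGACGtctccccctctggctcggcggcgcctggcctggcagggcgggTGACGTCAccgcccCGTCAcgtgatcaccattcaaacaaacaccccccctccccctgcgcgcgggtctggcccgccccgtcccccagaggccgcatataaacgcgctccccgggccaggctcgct
SPRY1, chr4:123396545-123396794, plus strand: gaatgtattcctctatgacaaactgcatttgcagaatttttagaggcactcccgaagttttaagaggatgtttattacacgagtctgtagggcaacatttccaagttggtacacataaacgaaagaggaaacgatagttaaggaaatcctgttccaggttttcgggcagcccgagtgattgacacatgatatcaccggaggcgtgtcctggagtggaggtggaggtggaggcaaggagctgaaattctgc
The DUSP1 window holds the full CRE, TGACGTCA, starting 125 bases before the start site, and that element contains 2 of the window's 4 core matches, which overlap. The SPRY1 window has no core match. Neither has that of SPRED1, which was called higher with the degrader. SPRY1 itself was not called with all libraries, and DUSP5, which was called lower, had no entry. A link between these letters and the response was not tested.

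In that table, entries on chromosome 8, where DUSP4 lies, were not searched for the members. Of the 10 genes, 6 had an entry on other chromosomes: DUSP1, DUSP6, SPRY1, SPRY2, SPRED1 and SPRED2. Both strands were searched. The full CRE was in 1.65% of all 35116 promoters and in the promoters of 1 of the 6 genes, DUSP1. The core TGACG, which the full element contains, was in 21.2% of promoters and in those of DUSP1 and SPRY2. The ETS site CCGGAA was in 14.5% of promoters and in those of SPRY2 and SPRY1, the SPRY1 match lying before its other listed start. The AP-1 site TGANTCA, in 6.57% of promoters, and the CArG box bound by SRF, in 1.16%, were in none of these windows. These matches are letters in a window and were not measured as bound sites.

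Total counts per library ran from 12.6 to 23.1 M (M, mega). The libraries degrader 2 and p300 KO 1 stood apart: genes of the mitochondrial genome took 64.9% of counts in degrader 2 and 47.7% in p300 KO 1. The share ran from 5.99 to 6.96% in the other degrader libraries and from 13.4 to 23.5% in DMSO. It ran from 10.2 to 11.4% in the other KO libraries and from 8.91 to 10.3% in NTC. Results of the 10 genes are given with all libraries and, where the call changes or the value moves by over 1.5 times, also without these 2. All 10 plasma cell markers had counts in every group, with a summed level of 8550 to 15036 CPM (counts per M counts of the library's TMM-scaled size) with the degrader, the lowest being degrader 2, and 10958 to 14045 CPM in DMSO. That sum was 12720 to 13388 CPM in the KO and 12838 to 13121 CPM in NTC. EP300 had 50.2, 38.1, 34.0 and 37.4 CPM in p300 KO libraries 1 to 4, against 100, 92.5, 91.0 and 94.6 CPM in NTC libraries 1 to 4. The KO libraries thus all lay below NTC, with a log2 fold change of −1.25 ± 0.11 (SE; edgeR adjusted p = 2.2e-04). With the degrader, which acts on the protein, EP300 had 49.9, 141, 48.1 and 49.9 CPM, against 35.8, 45.3, 43.9 and 41.4 CPM in DMSO. Its log2 fold change was 0.79 ± 0.35 (edgeR adjusted p = 0.249), and 0.24 without degrader 2 (adjusted p = 0.0531). CREBBP was called higher in the KO (log2 fold change 0.32 ± 0.06, edgeR adjusted p = 0.0085), a call lost in 3 of 15 alternative settings. With the degrader CREBBP was not called (0.71 ± 0.22, edgeR adjusted p = 0.101), but was called higher without degrader 2 (0.44, adjusted p = 0.00187).

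Levels between genes were compared as RPKM, which is CPM per kilobase of exon, scaled over all 16 libraries. DUSP5 had the highest level of the 10 in every library group, at 85.3 ± 13.7 RPKM with the degrader, 160.4 ± 8.58 RPKM in DMSO, 113.8 ± 5.10 RPKM in the KO and 101.75 ± 4.19 RPKM in NTC (mean ± SD, n = 4 each). DUSP6 came second in all 4 groups, with a mean level of 13.1 RPKM with the degrader, 8.73 RPKM in DMSO, 19.6 RPKM in the KO and 20.5 RPKM in NTC. ETV4, DUSP4, DUSP1 and ETV5 filled the middle of the order. Neighbours there often could not be separated: with the degrader, DUSP4 had 5.71 ± 0.523 RPKM, ETV4 5.09 ± 0.673 RPKM and DUSP1 4.62 ± 1.62 RPKM. In the KO, DUSP1 at 8.61 ± 2.90 RPKM and DUSP4 at 8.56 ± 0.565 RPKM overlapped as well.

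**Figure D1:**
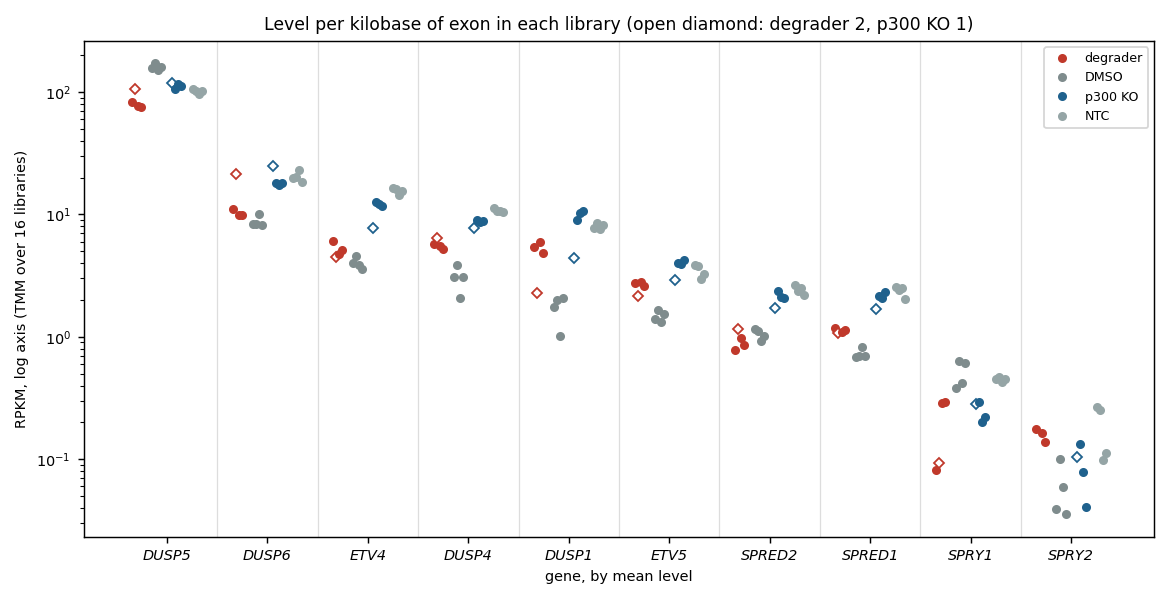
Level of each of the 10 genes per kilobase of exon in each of the 16 libraries, on a log axis, with degrader libraries left of DMSO and p300 KO left of NTC; open diamonds are degrader 2 and p300 KO 1, and a library with 0 counts is not drawn. DUSP5 lies above the other genes in all groups, and SPRY1 and SPRY2 lie lowest.

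SPRED1 and SPRED2 stood near the bottom of the order. SPRED2 had 0.941 ± 0.162 RPKM with the degrader, 1.06 ± 0.106 RPKM in DMSO, 2.08 ± 0.277 RPKM in the KO and 2.44 ± 0.192 RPKM in NTC, within the spread of SPRED1 in the KO and NTC. SPRY1 and SPRY2 were the lowest: SPRY1 averaged 0.188 ± 0.117 RPKM with the degrader and 0.512 ± 0.129 RPKM in DMSO, and SPRY2 averaged 0.119 RPKM with the degrader and 0.0587 RPKM in DMSO. Most members were higher in NTC than in DMSO, for example ETV4 at 15.6 ± 0.893 RPKM in NTC beside 4.01 ± 0.414 RPKM in DMSO. DUSP5 and SPRY1 had the opposite order. These control groups belong to different experiments, so the kind of control and the experiment cannot be told apart, and no test was made.

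**Figure D2:**
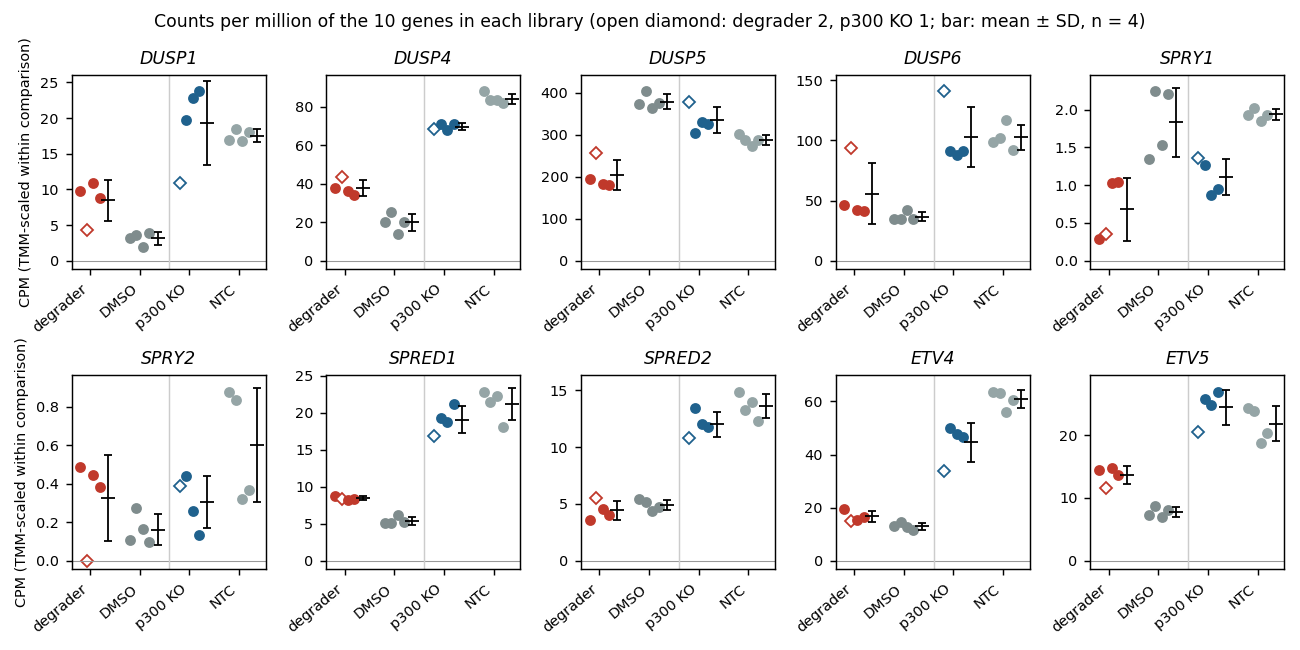
Counts of each gene in each library, as CPM scaled within each comparison, with group means and SD (n = 4) as bars; the vertical line parts the degrader experiment on the left from the KO experiment on the right, and open diamonds are degrader 2 and p300 KO 1. The degrader and DMSO points do not overlap in 7 of the genes, and degrader 2 and p300 KO 1 are the highest of their groups in DUSP5 and DUSP6.

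The first comparison asks how these transcripts stand 6 h after the degrader. Of the members, 9 passed the filter on low counts. DUSP1, DUSP4, SPRED1 and ETV5 were called higher and DUSP5 was called lower at a Benjamini-Hochberg adjusted p under 0.05 over all genes (edgeR quasi-likelihood test). Among all 15872 genes tested, 4.76% were called, 1.64% higher and 3.12% lower. The median log2 fold change of the 9 members was 0.60, against 0.05 over all genes. Without degrader 2, SPRY1 was also called lower and ETV4 higher, making 5 higher and 2 lower of 9. The background was then 38.5% of genes called, 18.2% higher and 20.3% lower. With all libraries, the groups did not overlap in 7 members, 5 of them higher and 2 lower, against 16.8% of all genes tested, 7.60% higher and 9.24% lower. The same 7 did not overlap once degrader 2 was left out, against 44.6% of all genes. When libraries were scaled to their total counts in place of TMM, the median of all genes moved by −0.14. None of the 9 members was called then by edgeR, though 4 had an unadjusted p under 0.05, and each kept its direction. With that scaling 11.6% of all called genes were higher, against 34.4% with TMM.

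**Figure D3:**
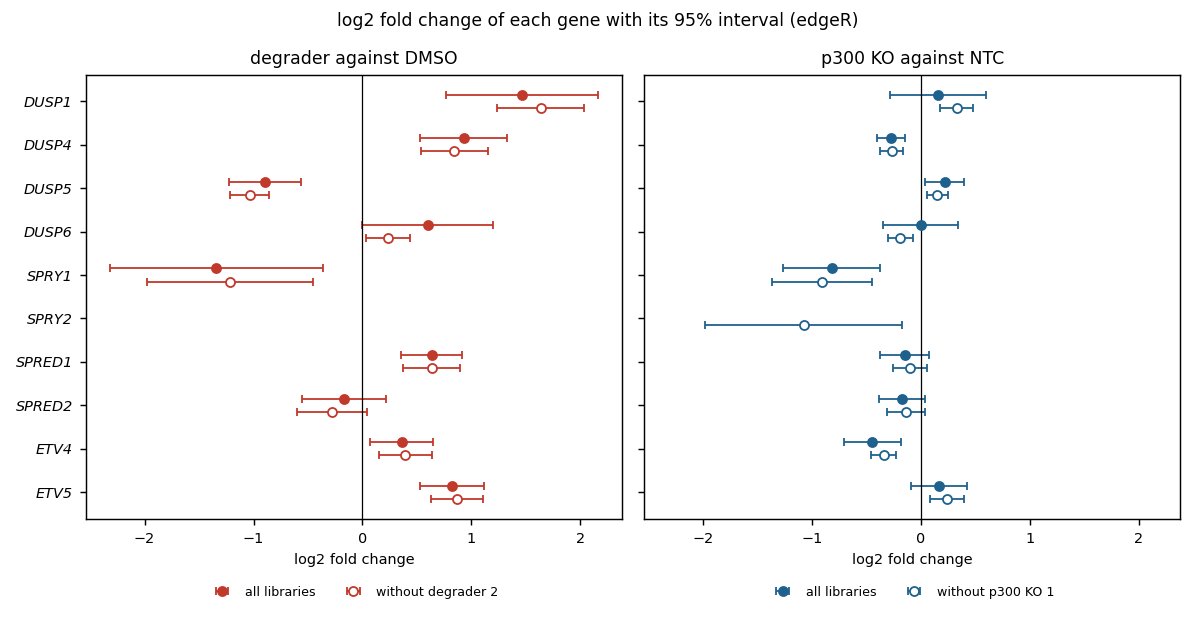
The log2 fold change of each gene with its 95% interval, in the degrader experiment (left panel) and the KO experiment (right panel); filled circles use all libraries and open circles leave out degrader 2 or p300 KO 1. With all libraries, whole intervals in the degrader panel lie right of 0 for DUSP1, DUSP4, SPRED1, ETV4 and ETV5 and left of 0 for DUSP5 and SPRY1. Intervals in the KO panel are mostly narrower, and SPRY2 is missing where it did not pass the count filter.

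Among the nuclear phosphatases, DUSP1 encodes MKP-1, an immediate early product that acts on p38 and JNK as well as ERK. DUSP1 had 9.83, 4.33, 11.0 and 8.76 CPM in degrader libraries 1 to 4, against 3.19, 3.61, 1.87 and 3.82 CPM in DMSO libraries 1 to 4. All 4 degrader libraries lay above all 4 DMSO libraries, with degrader 2 the closest to them. DUSP1 rose, with a log2 fold change of 1.46 ± 0.31 (SE; edgeR adjusted p = 0.0322), a fold of 2.76 with a 95% interval of 1.70 to 4.47. Without degrader 2 it was 1.64 (edgeR adjusted p = 1.89e-05), while each of the other 7 leave-outs of 1 library took the call away (adjusted p up to 0.113).

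DUSP4 encodes MKP-2, an inducible nuclear phosphatase related to MKP-1. Its levels were 37.5, 43.7, 36.1 and 34.2 CPM in the degrader libraries and 20.3, 25.0, 13.9 and 20.2 CPM in the DMSO libraries. The groups did not overlap, and DMSO 3 was the lowest library. DUSP4 rose, with a log2 fold change of 0.93 ± 0.18 (edgeR adjusted p = 0.0235), or 0.84 without degrader 2 (adjusted p = 5.27e-04). The call was lost when DMSO 1, DMSO 4, degrader 1, degrader 3 or degrader 4 was left out (adjusted p up to 0.0876).

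DUSP5 encodes a nuclear phosphatase specific for ERK, which it also anchors in the nucleus. It went the other way from DUSP1 and DUSP4. DUSP5 had 194.9, 257.8, 183.0 and 180.0 CPM in the degrader libraries, against 372.75, 403.64, 363.02 and 376.66 CPM in DMSO. All degrader libraries lay below all DMSO libraries, with degrader 2 nearest to DMSO. DUSP5 fell, with a log2 fold change of −0.90 ± 0.15 (edgeR adjusted p = 0.0127), and −1.04 without degrader 2 (adjusted p = 9.65e-07). Leaving out DMSO 4, degrader 1, degrader 3 or degrader 4 ended the call (adjusted p up to 0.0594).

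DUSP6 encodes MKP-3, the cytoplasmic phosphatase specific for ERK and a common readout of pathway activity. It had 46.6, 93.6, 41.9 and 41.1 CPM with the degrader, against 34.9, 34.7, 42.5 and 34.3 CPM in DMSO. Degrader 2 stood far above the rest of its group, DMSO 3 lay inside the degrader range, and the groups overlapped. Its log2 fold change of 0.60 ± 0.27 was not called (edgeR adjusted p = 0.243, 95% interval −0.00 to 1.20), and it was 0.23 without degrader 2 (adjusted p = 0.0620). DUSP6 shares 1875 bases of exon with an antisense gene on the opposite strand that had 1 to 82 counts per library, so its counts are uncertain, since the use of strand in counting is not stated.

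Sprouty proteins are induced by growth factor signalling and block the relay between receptors and RAS-ERK. SPRY1 had 0.291, 0.347, 1.03 and 1.05 CPM with the degrader, against 1.35, 2.24, 1.54 and 2.20 CPM in DMSO. These stand for 6, 2, 23 and 22 counts with the degrader and 25, 49, 28 and 45 counts in DMSO. The groups did not overlap, and the degrader libraries fell into a lower and a higher pair. The log2 fold change of −1.34 ± 0.43 was not called (edgeR adjusted p = 0.120); without degrader 2 it was −1.22 (adjusted p = 0.0153).

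SPRY2 did not pass the filter on low counts in the degrader comparison. It had 10, 0, 10 and 8 counts with the degrader, against 2, 6, 3 and 2 counts in DMSO, which is 0.484, 0, 0.447 and 0.381 CPM with the degrader and 0.108, 0.274, 0.165 and 0.0979 CPM in DMSO. The library at 0 was degrader 2, where 3 counts, about the 95% upper limit for a count of 0, would be 0.520 CPM, above each of the other degrader libraries. Those other 3 degrader libraries lay above all DMSO libraries. With so few counts no change was tested for this gene here.

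SPRED proteins bring neurofibromin to the membrane, where it switches RAS off. SPRED1 had 8.81, 8.32, 8.23 and 8.42 CPM with the degrader, against 5.13, 5.12, 6.25 and 5.24 CPM in DMSO. The degrader libraries were close together and above every DMSO library, degrader 2 included. SPRED1 rose, with a log2 fold change of 0.64 ± 0.12 (edgeR adjusted p = 0.0242), also 0.64 without degrader 2 (adjusted p = 0.00122). The call was lost in 6 of the 8 leave-outs of 1 library, those of DMSO 1, DMSO 2, DMSO 4, degrader 1, degrader 3 and degrader 4 (adjusted p up to 0.100), and with no filter on low counts (adjusted p = 0.100). Its relative SPRED2 had 3.63, 5.55, 4.56 and 4.00 CPM with the degrader, against 5.40, 5.16, 4.39 and 4.70 CPM in DMSO. These groups overlapped, and the log2 fold change was −0.17 ± 0.17 (edgeR adjusted p = 0.623, 95% interval −0.56 to 0.22), and −0.28 without degrader 2 (adjusted p = 0.153).

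ETV4 and ETV5 are ETS transcription factors of the PEA3 group, which the repressor CIC holds down when ERK is inactive. ETV5 had 14.5, 11.6, 14.8 and 13.7 CPM with the degrader, against 7.24, 8.68, 6.97 and 8.12 CPM in DMSO. No library of one group reached the other. ETV5 rose, with a log2 fold change of 0.82 ± 0.13 (edgeR adjusted p = 0.0109), or 0.87 without degrader 2 (adjusted p = 5.49e-05), and lost its call without DMSO 1, DMSO 4, degrader 1, degrader 3 or degrader 4 (adjusted p up to 0.0594). ETV4 had 19.7, 15.1, 15.5 and 16.7 CPM with the degrader, against 13.1, 14.7, 12.8 and 11.6 CPM in DMSO. Its groups were separated by a small gap and its log2 fold change of 0.36 ± 0.13 was not called (edgeR adjusted p = 0.151), though it was without degrader 2, at 0.39 (adjusted p = 0.0146). ETV5 shares 164 bases of exon with DGKG on its own strand and ETV4 shares 68 with DHX8 on the other, so part of their counts is uncertain.

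The second comparison asks how the genes stand in p300 KO cells. Of 9 members tested, DUSP4, SPRY1 and ETV4 were called lower and none higher, where 17.0% of 17350 genes were called, 6.23% higher and 10.7% lower (edgeR). The other 6 were not called, and 1 of these had an unadjusted p under 0.05. DESeq2 called 1 member higher and 3 lower, where it called 3962 of 17350 genes, 1749 higher and 2213 lower. The median log2 fold change was −0.15 over the members, against 0.02 over all genes. Without p300 KO 1, 10 members were tested: DUSP1, DUSP5 and ETV5 were called higher and DUSP4, DUSP6, SPRY1 and ETV4 lower, at a background of 40.9%, which was 19.1% higher and 21.8% lower. With all libraries, the groups did not overlap in 4 members, DUSP5 among the higher and DUSP4, SPRY1 and ETV4 among the lower. The share over all genes tested was 28.6%, 12.5% higher and 16.1% lower. Once p300 KO 1 was left out, DUSP1 and ETV5 (higher) and DUSP6 (lower) did not overlap either, against 41.9% of all genes. With total count scaling the median of all genes moved by −0.16 and 1 member was called, beside 1265 of 17350 genes. Of all called genes, 4.82% were then higher, against 36.7% with TMM.

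DUSP4 had 68.6, 71.2, 68.1 and 70.9 CPM in p300 KO libraries 1 to 4, against 87.9, 83.5, 83.5 and 81.9 CPM in NTC libraries 1 to 4. Both groups were tight and did not overlap, p300 KO 1 lying with the rest. DUSP4 fell, with a log2 fold change of −0.27 ± 0.06 (edgeR adjusted p = 0.0138), the same without p300 KO 1 (adjusted p = 5.27e-05). The call was lost in 5 of 15 alternative settings (edgeR adjusted p up to 0.220). Among these were NTC 1 left out (adjusted p = 0.0550) and no filter on low counts (adjusted p = 0.0899).

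DUSP1 had 10.9, 19.8, 22.8 and 23.7 CPM in the KO, against 16.9, 18.5, 16.8 and 18.0 CPM in NTC. p300 KO 1 was below every NTC library and the other KO libraries were above all of them. The log2 fold change was 0.15 ± 0.20 (edgeR adjusted p = 0.609) with all libraries and 0.33 without p300 KO 1 (adjusted p = 4.19e-04). DUSP5 had 379, 305.5, 331 and 325 CPM in the KO, against 302, 288, 274 and 287 CPM in NTC. The KO libraries all lay above NTC, but the log2 fold change of 0.22 ± 0.08 was not called (edgeR adjusted p = 0.0905); it was called without p300 KO 1, at 0.15 (adjusted p = 0.0105). DUSP6 had 141, 90.9, 88.2 and 91.4 CPM in the KO, against 99.0, 102, 117 and 92.3 CPM in NTC. p300 KO 1 was above all NTC libraries and the other 3 KO libraries below them. Its log2 fold change was 0.00 ± 0.15 (edgeR adjusted p = 0.996, 95% interval −0.34 to 0.34) with all libraries and −0.19 without p300 KO 1 (adjusted p = 0.00766).

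SPRY1 had 1.36, 1.27, 0.868 and 0.953 CPM in the KO, against 1.93, 2.02, 1.85 and 1.93 CPM in NTC, from 14 to 29 counts in the KO and 44 to 47 in NTC. No KO library reached NTC. SPRY1 fell, with a log2 fold change of −0.82 ± 0.20 (edgeR adjusted p = 0.0228), a fold of 0.567 with a 95% interval of 0.415 to 0.773. Leaving out any NTC library, p300 KO 3 or p300 KO 4 ended the call (adjusted p up to 0.0689), and without p300 KO 1 it was −0.91 (adjusted p = 0.00133). SPRY2 had 4, 10, 6 and 3 counts in the KO, against 20, 19, 8 and 9 counts in NTC, and did not pass the filter with all libraries. Without p300 KO 1 it did, with a log2 fold change of −1.07 (edgeR adjusted p = 0.0506).

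SPRED1 had 16.9, 19.3, 18.8 and 21.2 CPM in the KO, against 22.8, 21.4, 22.3 and 18.1 CPM in NTC. SPRED2 had 10.8, 13.4, 12.0 and 11.8 CPM in the KO, against 14.9, 13.3, 13.9 and 12.3 CPM in NTC. In both genes the groups overlapped. The log2 fold changes were −0.15 ± 0.10 for SPRED1 (edgeR adjusted p = 0.316, 95% interval −0.37 to 0.07) and −0.18 ± 0.09 for SPRED2 (adjusted p = 0.215).

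ETV4 had 33.8, 50.0, 47.8 and 46.8 CPM in the KO, against 63.6, 63.1, 56.2 and 60.7 CPM in NTC. The KO libraries all lay below NTC, p300 KO 1 the farthest. ETV4 fell, with a log2 fold change of −0.45 ± 0.12 (edgeR adjusted p = 0.0285), or −0.34 without p300 KO 1 (adjusted p = 4.63e-06), and the call was lost without any 1 of the NTC libraries or p300 KO 4 (adjusted p up to 0.0867). ETV5 had 20.4, 25.7, 24.7 and 26.9 CPM in the KO, against 24.4, 23.9, 18.7 and 20.3 CPM in NTC. Here the groups overlapped through p300 KO 1, which lay among the NTC libraries. The log2 fold change of ETV5 was 0.17 ± 0.11 (edgeR adjusted p = 0.320) with all libraries and 0.24 without p300 KO 1 (adjusted p = 0.00991).

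The difference between the KO effect and the degrader effect was tested as 1 contrast over all 16 libraries, with no controls in common. It was called in 5 of 10 members, higher for DUSP5 and lower for DUSP4, SPRED1, ETV4 and ETV5, where 6.58% of 18068 genes were called, 2.82% higher and 3.76% lower (edgeR). The median difference was −0.76 over the members, against −0.04 over all genes. Without degrader 2 and p300 KO 1 it was called in 8 of 10, 1 higher and 7 lower, at a background of 32.0%, which was 15.3% higher and 16.7% lower. With total count scaling edgeR called it in none of the members, 6 of which had an unadjusted p under 0.05.

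**Figure D4:**
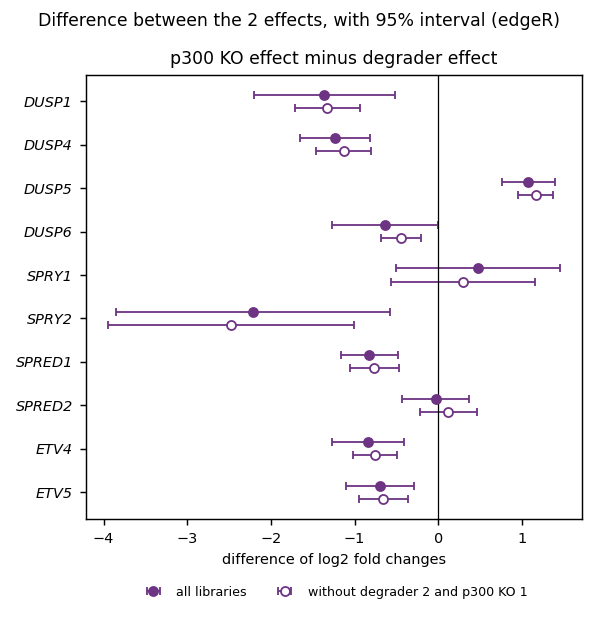
The KO effect minus the degrader effect of each gene, as a difference of log2 fold changes with its 95% interval; filled circles use all 16 libraries and open circles leave out degrader 2 and p300 KO 1. DUSP5 lies right of 0 at 1.07, SPRY1 and SPRED2 have intervals that span 0, and the others lie left of 0.

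DUSP5 had a difference of 1.07 ± 0.15 (edgeR adjusted p = 4.64e-04), with all degrader libraries below DMSO and all KO libraries above NTC. DUSP4 had a difference of −1.24 ± 0.20 (edgeR adjusted p = 0.00134): it was called higher with the degrader and lower in the KO. SPRED1 had −0.83 ± 0.16 (edgeR adjusted p = 0.00565). These 3 kept their call in all 16 leave-outs of 1 library. ETV4, which also had opposite signs in the comparisons, differed by −0.84 ± 0.20 (edgeR adjusted p = 0.0199) and lost its call without DMSO 4 or degrader 1 (adjusted p up to 0.0570) and with no filter on low counts (adjusted p = 0.0697). ETV5 differed by −0.69 ± 0.19 (edgeR adjusted p = 0.0405) and kept its call in only 5 of 16 leave-outs, and lost it with no filter (adjusted p = 0.151).

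For the other members the difference was not called. SPRY1 had −1.34 with the degrader and −0.82 in the KO, and the difference of 0.47 ± 0.46 (edgeR adjusted p = 0.614) has a wide interval; it was 0.29 without degrader 2 and p300 KO 1. SPRED2 had −0.03 ± 0.19 (edgeR adjusted p = 0.959), and 0.12 without those libraries. DUSP1 had −1.36 ± 0.39 (edgeR adjusted p = 0.0504), DUSP6 −0.64 ± 0.30 (adjusted p = 0.234) and SPRY2 −2.21 ± 0.77 (adjusted p = 0.104), and each of these 3 was called without degrader 2 and p300 KO 1, with adjusted p of 9.73e-06, 0.00492 and 0.00983.

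The pair of libraries rich in mitochondrial counts stood off from their groups in the same direction in some members and in opposite directions in others. DUSP1 in degrader 2 was 0.440 times the mean of the other degrader libraries, and in p300 KO 1 it was 0.491 times the mean of the other KO libraries. DUSP6 was 2.17 times and 1.56 times its mates, and DUSP5 1.39 times and 1.18 times. ETV5 was 0.811 times and 0.794 times, and ETV4 0.873 times and 0.702 times. Opposite ways went SPRED2, at 1.37 times in degrader 2 and 0.868 times in p300 KO 1, and SPRY1, at 0.439 times and 1.32 times. The SPRY1 value in degrader 2 rests on 2 counts. SPRY2 had 0 counts in degrader 2, too few to give a direction there, and was 1.39 times in p300 KO 1, from 4 counts. DUSP4 was 1.22 times and 0.979 times, and SPRED1 0.980 times and 0.853 times. Over the 10 members, degrader 2 lay above its whole group in 4 and below it in 4, SPRY2 at 0 counts being among the latter. The library p300 KO 1 lay above in 3 and below in 5. The part of these libraries' mitochondrial share in such shifts was not tested.

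Other genes of the pathway were counted in 6 lists. With the degrader, 17 other feedback inhibitors were tested and 1 was called, lower: DUSP10, a phosphatase for p38 and JNK, at 1.37 ± 0.638 CPM with the degrader and 4.40 ± 0.235 CPM in DMSO (SD, n = 4 each; log2 fold change −1.59 ± 0.29, edgeR adjusted p = 0.0205). Of 12 other ERK output genes, 2 rose, the immediate early factors EGR1 (log2 fold change 2.46 ± 0.16, edgeR adjusted p = 2.83e-04) and FOS (1.71 ± 0.30, adjusted p = 0.0179). MYC (−0.76 ± 0.19, edgeR adjusted p = 0.0632) and MCL1 (−0.66 ± 0.17, adjusted p = 0.0658) were lower but not called. The median log2 fold change of this list was −0.21, against 0.05 over all genes. Without degrader 2, 4 of the 12 were called higher and 4 lower, MYC and MCL1 among the lower. The background was then 18.2% higher and 20.3% lower. Of 10 nuclear effectors the ETS factor ELK3 rose (0.68 ± 0.12, edgeR adjusted p = 0.0180). NRAS was not called (0.30 ± 0.13, edgeR adjusted p = 0.245), but was called higher without degrader 2 (0.37, adjusted p = 0.00408). Of 9 receptors, FGFR3 (1.18 ± 0.13, edgeR adjusted p = 0.00264) and FGFR1 (0.67 ± 0.15, adjusted p = 0.0391) rose and IL6ST, the shared IL-6 receptor subunit, fell (−0.59 ± 0.14, adjusted p = 0.0463). Of 8 genes of a published MAPK activity score that were tested, 2 rose, and both, DUSP4 and ETV5, are members. The background for these lists was 1.64% of genes higher and 3.12% lower. Of cell type markers, 1 of 10 for plasma cells and 1 of 2 for T cells fell with the degrader. Without degrader 2, 3 of 10 plasma cell markers were called higher and 2 lower, at a background of 18.2% higher and 20.3% lower. Of 5 earlier B cell markers 1 then went each way, and 1 of 2 for T cells and 1 of 3 for NK cells were lower. The summed T cell level was 12.8 to 24.8 CPM with the degrader and 36.2 to 40.2 CPM in DMSO. The T cell markers CD3D, CD3G and CD8A were at or near 0, with at most 7 counts in any of the 16 libraries, so that sum came from CD3E and TRAC. Its part in the results was not tested.

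**Figure D5:**
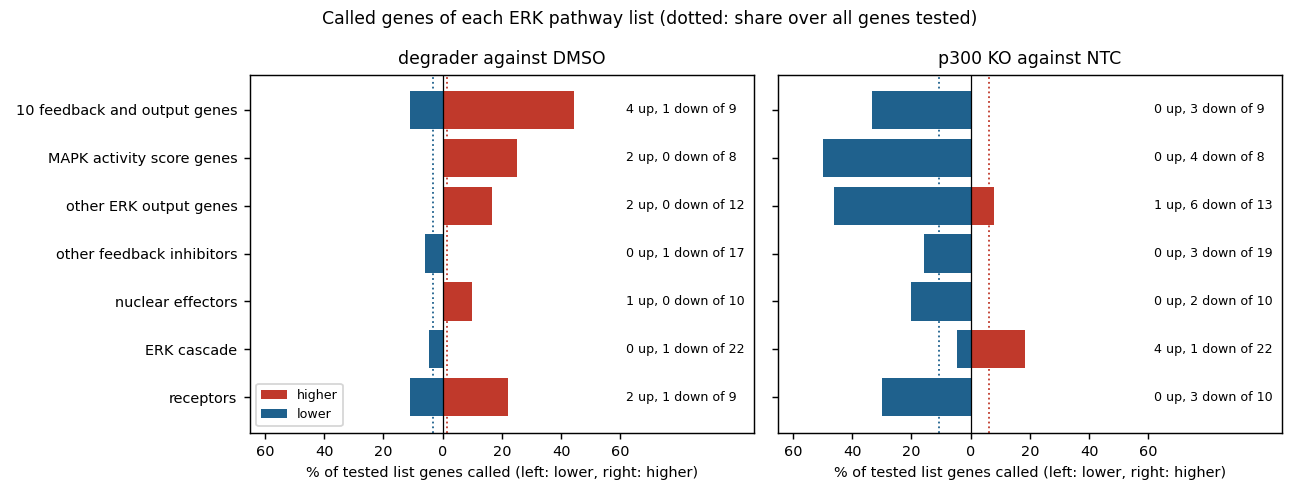
Percentage of the tested genes of each list called higher (right of 0) or lower (left of 0) in the degrader experiment (left panel) and the KO experiment (right panel), with the share over all genes as dotted lines and the counts printed beside. The members have 4 of 9 called higher with the degrader, and 3 of 9 called lower in the KO.

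In the KO, 6 of 13 other ERK output genes fell and 1 rose, where 10.7% of all genes fell and 6.23% rose. Among them were CCND1, encoding cyclin D1 (log2 fold change −0.72 ± 0.06, edgeR adjusted p = 7.90e-05), MYC (−0.93 ± 0.10, adjusted p = 5.06e-04) and KLF2, a zinc finger factor (−0.92 ± 0.12, adjusted p = 0.00124), while FOS rose (0.96 ± 0.14, adjusted p = 0.00202). Of 19 other feedback inhibitors 3 fell, DUSP10, DUSP2 and DUSP7, and of 10 nuclear effectors 2 fell, ETS1 and SRF, shares not far above that background. Of 22 cascade genes 4 rose, KSR1, RPS6KA2, RPS6KA1 and BRAF, and NRAS fell (−0.28 ± 0.07, edgeR adjusted p = 0.0231). Of 10 receptors 3 fell, TNFRSF17, IL6R and ERBB2, and FGFR3 was not called (0.39 ± 0.12, edgeR adjusted p = 0.0505) but was called higher without p300 KO 1 (0.50, adjusted p = 6.65e-11). Of 8 genes of the MAPK activity score 4 fell, CCND1, DUSP4, PHLDA1 and ETV4. Of the markers of cell types tested in the KO, 5 of 10 for plasma cells fell, 3 of 5 for earlier B cells, 1 of 2 for T cells, 1 of 3 for NK cells, 1 of 1 for monocytes and 1 of 3 for epithelia, and none rose. Without p300 KO 1, 2 of 10 plasma cell markers were called higher and 6 lower. Then 1 of 1 for fibroblasts was higher, and 5 of 5 for earlier B cells and 2 of 3 for NK cells were lower. The background there was 19.1% higher and 21.8% lower. The summed level of the earlier B cell markers was 16.1 to 28.6 CPM in the KO and 26.3 to 29.8 CPM in NTC. Their part in the result was not tested.

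In the difference between the effects, none of 19 other feedback inhibitors was called, and 3 had an unadjusted p under 0.05. The difference was called in 4 of 13 other ERK output genes (all lower), 2 of 10 nuclear effectors (both lower), 3 of 22 cascade genes (2 higher, 1 lower), 3 of 10 receptors (all lower) and 5 of 9 MAPK activity score genes (all lower) (edgeR), where 6.58% of all genes were. Without degrader 2 and p300 KO 1, 5 of the 19 other feedback inhibitors were called, 2 higher and 3 lower, a smaller share than the 32.0% of all genes called there.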

How the data were processed

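The authors' deposited files hold whole-number counts per gene, 1 table per library. The submitters' processing notes name GRCh38 and the tools STAR 2.5.2b, Trimmomatic 0.36, DESeq2 1.16.1 and Subread 1.5.2 with its featureCounts; strand use, multimapping and annotation release are not given there. Positions and exon lengths were those deposited with the counts. Symbols came from a separate list of gene names, which gave 1 for 56410 of 57500 identifiers. Of these identifiers, 56898 were in GENCODE 29, and all 10 genes had the same position there. No 2 libraries were identical.

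Counts were analysed in R 4.3.3 with edgeR 4.0.16: filterByExpr, TMM scaling and the quasi-likelihood test on each comparison's own 8 libraries, or on all 16 for the difference, with Benjamini-Hochberg adjustment over all genes tested and a threshold of 0.05. The SE is the absolute log2 fold change over the root of its F statistic. CPM, marker sums and floors included, is TMM-scaled within a comparison, RPKM over all 16 libraries. The count fit was tested on simulated data. Alternatives were leaving out each library, total count scaling, removal of mitochondrial genes, no filter, DESeq2 1.42.0, limma 3.58.1 voom with quality weights, a replicate block and a fit on all libraries. The text names all 10 genes, EP300, CREBBP, NRAS, FGFR3, and up to 4 genes per list with the smallest p; BRAF, named among 4 that rose, is outside this rule and was chosen after its value was seen. One gene that this rule names is not reported here. The members, lists and comparisons were chosen with earlier results of these data known. Floors cover counting error only.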

Additional observations from a re-analysis of the deposited data

Results flagged for a closer look

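In groups of 4 libraries, a highest or lowest library was picked out when its gap to the nearest other library, divided by the range, passed Dixon's 95% critical value for 4. Over 40 groups (10 genes in 4 groups), chance picks about 1 in 20. DUSP6 had such a library in 3 groups: degrader 2 at 93.6 CPM, p300 KO 1 at 141 CPM and DMSO 3 at 42.5 CPM. SPRED1 had 1, DMSO 3 at 6.25 CPM. The mitochondrial share of counts stood apart in the same way at 64.9% in degrader 2 and 47.7% in p300 KO 1.

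The KO and degrader effects differed by the test of the difference (edgeR, adjusted p under 0.05 over all genes) in 5 genes. The KO minus degrader difference in log2 fold change was −1.24 for DUSP4, 1.07 for DUSP5, −0.83 for SPRED1, −0.84 for ETV4 and −0.69 for ETV5.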

How the results depend on the processing

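Counts of calls depended on the libraries and the scaling. With the degrader, 755 genes and 5 members were called; 1 library left out gave 197 to 6278 genes and 0 to 7 members, and only the loss of degrader 2 gave more than 755 genes. Other settings gave 164 genes and 0 members (total count scaling), 394 (no filter), 1796 (DESeq2), 7616 and 8 (voom with quality weights) and 2294 (all 16 libraries in 1 fit). In the KO, 2944 genes and 3 members were called; 1 library left out gave 1542 to 7246 genes and 0 to 7 members, and other settings 1265 and 1 (total count scaling), 6871 and 6 (voom) and 1484 and 1 (all 16 libraries in 1 fit). For the difference, 1189 genes and 5 members were called; leaving out 1 library gave 766 to 4611 genes and 3 to 7 members. Other settings gave 319 and 0 (total count scaling), 585 and 3 (no filter), 2095 (DESeq2), 6835 and 8 (voom) and 5901 and 8 (without degrader 2 and p300 KO 1). With total count scaling, edgeR left 4 of 9 members in the degrader comparison and 6 of 10 in the difference at an unadjusted p under 0.05. The cause was not tested.

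The replicate block, with the replicate number as a term, gave 24 genes and 0 members with the degrader, 1304 and 0 in the KO, and 306 and 2 in the difference; 6 of the 9 members with the degrader and 4 of 9 in the KO had an unadjusted p under 0.05. Correlations of same-numbered libraries ran from −0.44 to 0.13 with the degrader and from −0.17 to 0.02 in the KO. No degrader or KO library correlated best with its own number. With so few libraries per group, and degrader 2 and p300 KO 1 among them, this cannot show whether samples were paired.

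DUSP6 in the KO (0.00) changed sign: −0.19 to 0.0704 with 1 library left out, −0.23 (total count scaling), −0.0118 (mitochondrial genes left out), −0.0530 (no filter), −0.16 (voom), −0.0203 (replicate block) and −0.0635 (all 16 libraries). SPRED2 in the difference (−0.03) did too: −0.11 to 0.0585 with 1 library left out, 0.0078 (total count scaling), 0.10 (voom) and 0.12 (without degrader 2 and p300 KO 1). No other member changed sign in any comparison. Total count scaling moved mean RPKM beyond 1 SD in NTC to 9.32 (DUSP1), 12.4 (DUSP4), 118 (DUSP5), 23.7 (DUSP6), 0.524 (SPRY1), 2.75 (SPRED1), 2.83 (SPRED2), 18.1 (ETV4) and 4.04 (ETV5); with the degrader to 5.01 (DUSP4) and 1.01 (SPRED1); and in the KO to 9.19 (DUSP4) and 120.4 (DUSP5). Depth limits SPRY1 and SPRY2, at 0 to 49 counts per library.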
